A study of Mus musculus with 12 samples.

Results

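The 9 genes described here encode the mouse receptors for the Fc part of immunoglobulin G (Fcgr1, Fcgr2b, Fcgr3 and Fcgr4), the signaling chain that the activating receptors share (Fcer1g), and proteins that act at the receptor within the first steps of the signal (Syk, Lyn, Inpp5d and Vav1). They were chosen by name, and all 9 were found among the 12339 genes of the count table. Fc gamma receptors let macrophages bind and engulf antibody-coated particles and immune complexes. When an activating receptor is cross-linked, Src family kinases such as Lyn phosphorylate the tyrosine motif (ITAM) of the Fc receptor gamma chain, the kinase Syk docks there, and exchange factors such as Vav1 turn on the actin machinery of the phagocytic cup. Fcgr2b, the inhibitory receptor, instead recruits the lipid phosphatase SHIP1, encoded by Inpp5d, which removes the phosphoinositide that the activating signal builds on.

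Macrophages came from mice of 2 genotypes, wild type (WT) and meKO, read from the series title as a myeloid knockout of protein kinase C epsilon (gene Prkce). The line that drives the deletion is not named in the labels. All mice, chow controls included, were given AAV8PCSK9, a vector used to strip the LDL receptor from liver cells, at 8 weeks of age. They ate chow or a Western-type high-fat diet (HFD) for 4 weeks, after which macrophages were elicited with thioglycolate and washed from the peritoneum. There were 4 groups (WT chow, WT HFD, meKO chow, meKO HFD) with 3 RNA-seq libraries each. The labels do not say which animals gave which library, so the p-values measure the spread between libraries.

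Total counts ran from 25844958 to 37282772 per library, and the 9 genes had between 2153 (Vav1) and 50856 (Fcgr3) counts in a library, so counting error was small beside the spread between libraries. Prkce stood at 2.01 to 4.44 CPM (counts scaled to library size by the TMM method) in the 6 WT libraries and at 0.95 to 1.78 CPM in the 6 meKO libraries, with no overlap. Several macrophage markers were high in every library: Adgre1 (F4/80) stood at 513 to 697 CPM, Csf1r at 473 to 844 and Cd68 at 2537.9 to 3658.3. Others of the 10 listed were lower, such as Mertk at 56.7 to 122 CPM and Cebpb at 37.3 to 92.6. Between diets over both genotypes edgeR called 7 of the 10, 3 higher and 4 lower, beside 30.2% of all genes. Lyz2 (lysozyme), of the same marker list, ran from 30482 to 53835 CPM in WT and from 69.3 to 21309 in meKO, the lowest value being that of meKO chow replicate 2. Without that library edgeR called 1 of the 9 genes between diets in WT, in place of 2, and 3 of the 9 over both genotypes, in place of 4; the call of Fcer1g ended in each. In WT chow replicates 1 and 2 the deviation of a gene from its mean over all libraries rose with transcript length (Spearman's rho across genes 0.63 and 0.67), whereas in the other 10 libraries rho lay between -0.46 and 0.14. Because the HFD contrast in WT and the genotype contrast on chow both use those libraries, the diet differences, and the genotype differences in ranges, are also given after a length and GC correction, in which each library's smooth trend of expression on transcript length and GC content was removed. What made these libraries differ along length was not tested.

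Apart from Fcgr1 on chromosome 3 (chr3:96282909-96293969, mm10), the receptor genes lie close together on chromosome 1: Fcgr2b at chr1:170960558-170976071, Fcgr4 at chr1:171018926-171029761, Fcgr3 at chr1:171051169-171065915 and Fcer1g at chr1:171229572-171234349. Inpp5d lies further off on the same chromosome (chr1:87620312-87720510). Syk is on chromosome 13 (chr13:52582610-52648792), Lyn on chromosome 4 (chr4:3678068-3791612) and Vav1 on chromosome 17 (chr17:57279100-57329236). The promoter sequences of the genes whose levels the results turn on are shown because the receptors are genes of the myeloid lineage: PU.1 (Spi1) is the factor that sets much of macrophage transcription, and interferon gamma is a known inducer of Fcgr1 through the GAS element. The 120 bases before the RefSeq start (build GRCm38.p6) are printed 5′ to 3′ on the gene's strand, with the PU.1 core GAGGAA, or its reverse complement TTCCTC, and the GAS form TTCNNNGAA in capitals.
Fcgr1, chr3:96293970-96294089: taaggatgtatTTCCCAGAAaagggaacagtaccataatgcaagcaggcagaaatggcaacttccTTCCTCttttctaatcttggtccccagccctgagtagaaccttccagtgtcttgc
Fcgr2b, chr1:170976072-170976191: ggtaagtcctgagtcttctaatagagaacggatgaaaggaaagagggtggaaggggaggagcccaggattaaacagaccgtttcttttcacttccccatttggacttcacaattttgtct
Fcgr3, chr1:171059395-171059514: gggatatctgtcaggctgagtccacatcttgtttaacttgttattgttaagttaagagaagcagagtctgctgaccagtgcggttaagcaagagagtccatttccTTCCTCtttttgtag
Fcgr4, chr1:171018806-171018925: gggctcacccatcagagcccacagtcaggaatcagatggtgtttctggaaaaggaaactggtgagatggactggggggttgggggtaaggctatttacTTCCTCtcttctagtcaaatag
Fcer1g, chr1:171234350-171234469: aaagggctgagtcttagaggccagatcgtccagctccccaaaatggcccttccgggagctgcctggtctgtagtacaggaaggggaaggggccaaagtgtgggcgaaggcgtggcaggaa
Inpp5d, chr1:87620192-87620311: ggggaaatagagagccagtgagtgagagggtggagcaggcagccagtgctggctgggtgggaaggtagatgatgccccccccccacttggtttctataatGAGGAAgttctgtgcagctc

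The promoter table held 8 of the 9 genes, with 10 promoters in all. Within the 250 bases before the start, the PU.1 core was found on either strand in 6 of these 8 genes (Fcgr1, Fcgr3, Fcgr4, Inpp5d, Syk and Vav1). Counted by promoter it was in 7 of the 10, beside 23.3% of all 32851 promoters in the table. Both Fcgr3 promoters overlap and hold the same match. They lie inside the span given above for Fcgr3, so the match is not upstream of the whole gene. The Syk promoters also lie inside the span of that gene. The core began 55 bases before the start in Fcgr1, 22 in Fcgr4, 20 in Inpp5d and 15 in the Fcgr3 promoter shown. The GAS form was found in Fcgr1 alone, as TTCCCAGAA beginning 109 bases before the start, and in 7.02% of all promoters. The 2 motifs did not overlap there. These are matches of letters, not measured binding sites. Spi1 itself was at 230 to 350 CPM over the 12 libraries.

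Per kilobase of the longest coding transcript, the scale on which genes can be compared, Fcgr3, the low-affinity activating receptor, was the most abundant at 984 ± 127 CPM per kilobase (SD, n = 12 libraries), followed by the shared gamma chain Fcer1g at 941 ± 186. The spreads of these 2 overlapped. Fcgr4 followed at 184 ± 30.2 and the inhibitory Fcgr2b at 139 ± 23.8, with ranges of 111 to 230 and 120 to 191 that also overlapped. Lyn (66 ± 3.82), the high-affinity receptor Fcgr1 (65.6 ± 14.9) and Syk (64.8 ± 11.7) could not be told apart. Vav1 (32.7 ± 3.48) and Inpp5d (25.2 ± 4.29) were lowest. With the mean length over a gene's transcripts in place of the longest, Fcgr2b (257) moved ahead of Fcgr4 (184), Syk ahead of Lyn and Fcgr1, and Inpp5d (38.8) ahead of Vav1 (34.1), so the order of these neighbours depends on the transcript assumed.

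**Figure D1:**
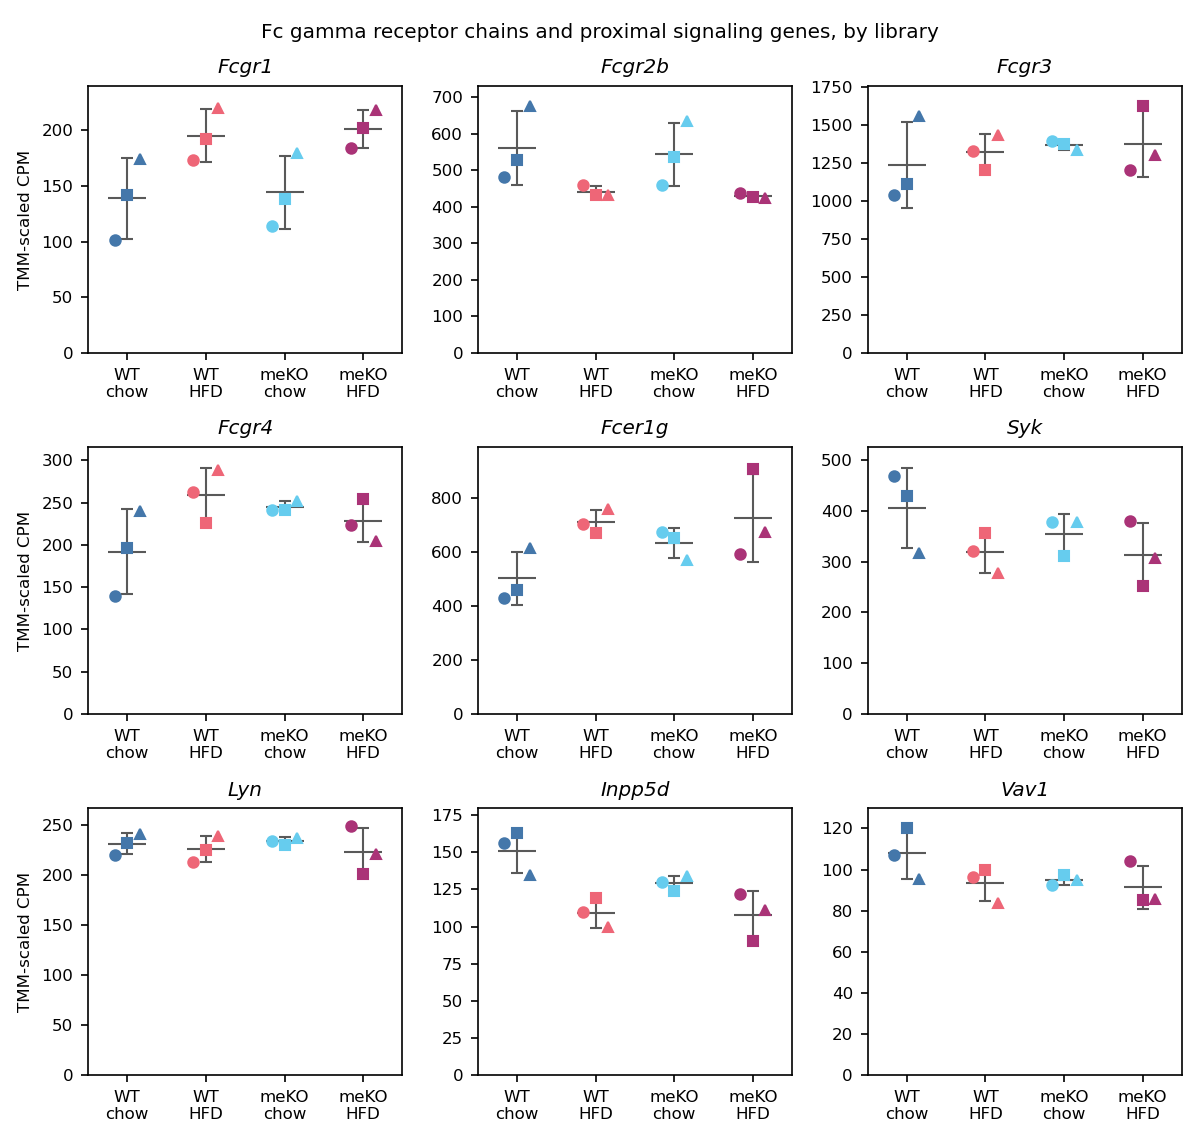
Level of each of the 9 genes in each library, in TMM-scaled CPM, by genotype and diet; circles, squares and triangles are replicates 1, 2 and 3 of a group, and horizontal marks with bars are means ± SD (n = 3). Fcgr1 was at 173 to 220 CPM in the 6 HFD libraries and at 101 to 179 on chow, while Fcgr2b was at 424 to 458 on HFD and at 460 to 676 on chow.

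Averaged over the 2 genotypes, the activating receptor Fcgr1 rose and the inhibitory Fcgr2b fell on HFD, and both changes were about as large after the length and GC correction. The other activating receptors, Fcgr3 and Fcgr4, were not called, and after the correction Fcgr3 was called lower. Fcer1g rose and Inpp5d fell as well, but these differences shrank once length was taken into account. In this averaged contrast 4 of the 9 genes were called by edgeR's quasi-likelihood test at a Benjamini-Hochberg adjusted p under 0.05, that is 44.4%, beside 30.2% of all genes tested. Of all genes, 14.9% were called higher (2 of the 9) and 15.3% lower (2 of the 9). After the correction 3 of the 9 were called (33.3%), beside 23.0% of all genes, with 11% of all genes higher and 11.9% lower. With 9 genes, shares this close to the background say nothing about the genes as a set, and each is described on its own. Leaving out WT HFD replicate 3 left 1 of the 9 called over both genotypes, beside 1957 of all genes (3721 with every library in). Leaving out meKO chow replicate 3 left 2 of the 9. The median log2 fold change of the 9 was -0.05, against -0.03 over all genes.

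Within a genotype fewer were called. In WT, edgeR called 2 of the 9 between diets (22.2%, beside 21.3% of all genes): Fcer1g among the 9.50% called higher and Inpp5d among the 11.8% called lower. After the correction it called 0 of 9 in WT, beside 12.3% of all genes, and the smallest adjusted p among the 9 was 0.08; uncorrected, 5 of the 9 had an unadjusted p under 0.05 (39.4% of all genes did), and DESeq2 called 4 of the 9 and 3451 of all 12339 genes. The WT count was 0 without WT chow replicate 1 or 2 or WT HFD replicate 1 or 3. It was 1 without WT HFD replicate 2, meKO chow replicate 1 or 2 or meKO HFD replicate 3. Without WT chow replicate 3 it was 5. Calls over all genes in WT moved as well, from 96 without WT HFD replicate 3 to 4921 without WT chow replicate 3. In meKO edgeR called 0 of 9 between diets, beside 0.105% of all genes. Of the 9, 2 (Fcgr1 and Fcgr2b) had an unadjusted p under 0.05, beside 15.9% of all genes. DESeq2 called 0 of the 9 and 227 of all genes. Libraries of the 2 diets did not overlap in CPM for 3 of the 9 genes in WT (39.3% of all genes) and for 3 in meKO (19.7% of all genes).

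**Figure D2:**
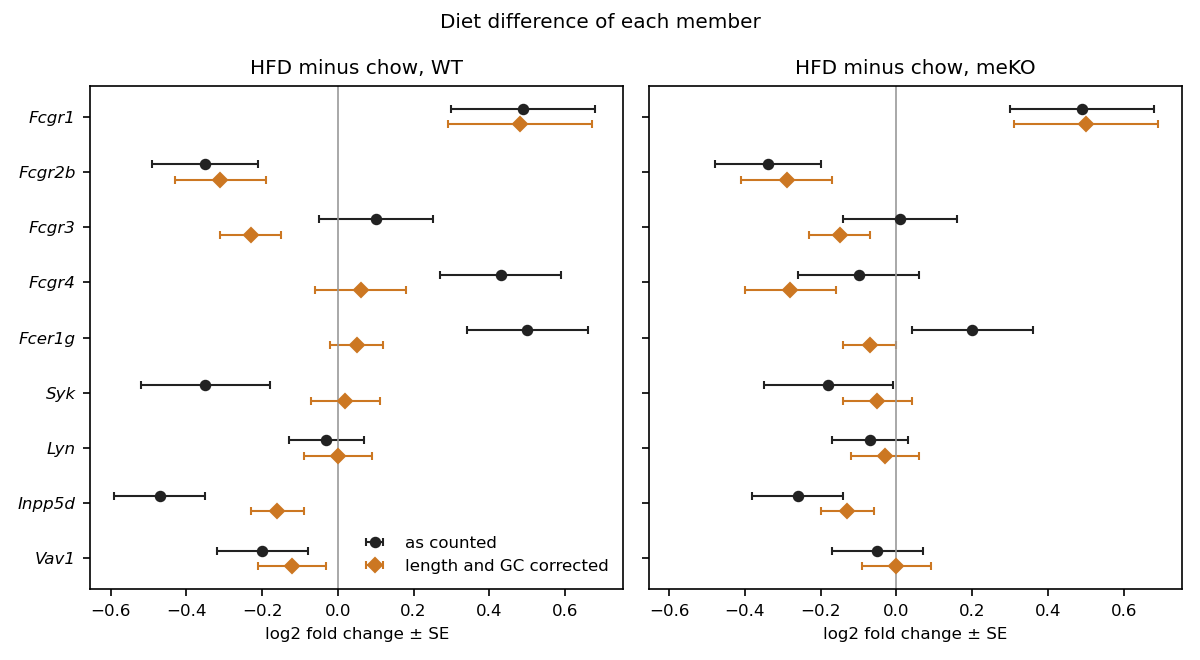
Log2 fold change from chow to HFD (± SE of the fit) of the 9 genes in WT, left, and in meKO, right; black circles are the counts as deposited and orange diamonds the values after the length and GC correction. Fcgr1 lay near 0.49 and Fcgr2b near -0.34 in both panels with and without the correction, whereas Fcer1g in WT moved from 0.50 to 0.05.

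Fcgr1 encodes CD64, the receptor that binds monomeric IgG with high affinity. The WT libraries on chow had 101, 142 and 174 CPM of it and those on HFD 173, 192 and 220. The meKO libraries had 114, 138 and 179 CPM on chow and 184, 202 and 218 on HFD. Thus all 3 meKO HFD libraries lay above all meKO chow libraries, while in WT the highest chow library just overlapped the lowest HFD library. Fcgr1 was 0.49 ± 0.19 higher (log2 fold change ± SE) on HFD in WT and 0.49 ± 0.19 higher in meKO, neither past the threshold alone (edgeR adjusted p = 0.0762 and 0.269). Over both genotypes the rise was 0.49 ± 0.13, or 1.40-fold (edgeR adjusted p = 0.0186), and it was 0.49 after the correction (adjusted p = 0.0236). The call ended without WT HFD replicate 3 (0.44, edgeR adjusted p = 0.0532) and without WT chow replicates 1 and 2 together (0.33, adjusted p = 0.18). The WT value alone was 0.17 without WT chow replicates 1 and 2 together and 0.69 without WT chow replicate 3. Of 9 markers of resident large peritoneal macrophages, 2 were called higher and 2 lower between diets over both genotypes, and Gata6, the factor that defines those cells, was at 1.35 to 4.31 CPM. Their summed level was 645 to 868 CPM in WT chow and 973 to 1065 in WT HFD, and 871 to 1099.7 and 969 to 1322.7 in meKO, but 87.6% of it was Cd9; without Cd9 it was 99.2 to 224 and 74.1 to 115 CPM in WT, and 63.6 to 163 and 79.7 to 101 in meKO. The part of such cells in the result was not tested. In bulk RNA, a change in the share of a cell type and a change of RNA per cell cannot be told apart.

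Fcgr2b encodes the single inhibitory receptor of the family, which carries an inhibitory tyrosine motif (ITIM). The WT libraries had 481, 528 and 676 CPM on chow and 458, 433 and 431 on HFD. The meKO libraries had 460, 535 and 633 CPM on chow and 437, 427 and 424 on HFD. Every HFD library, of either genotype, lay below every chow library, and the HFD libraries were close together (SD 15.2 and 6.84 CPM) where the chow libraries were spread (SD 102 and 86.3). The log2 fold change was -0.35 ± 0.14 in WT and -0.34 ± 0.14 in meKO (edgeR adjusted p = 0.0769 and 0.276). Over both genotypes Fcgr2b fell by 0.34 ± 0.10 on the log2 scale, to 0.788 of the chow level (edgeR adjusted p = 0.0199), and after the correction by 0.30 (adjusted p = 0.0244). The call ended without WT HFD replicate 3 (adjusted p = 0.0514 with edgeR) and without meKO chow replicate 3 (-0.28, adjusted p = 0.0557). The WT value alone was -0.62 without WT chow replicates 1 and 2 together and -0.18 without WT chow replicate 3.

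B cells also express Fcgr2b, and markers of B cells moved with it. Of the 9 B cell markers measured (of 10 listed), 8 were called between diets over both genotypes, all of them lower. Their summed level was 114 to 174 CPM in WT chow and 54.8 to 92.0 in WT HFD, and 79.0 to 171 CPM in meKO chow and 59.4 to 119 in meKO HFD. The most abundant of them, Ighm, made up 62% of the sum and was at 35.6 to 104 CPM. Ms4a1 (CD20) was at 4.11 to 22.2 CPM. The part of B cells in the fall of Fcgr2b was not tested. Of the 50-base stretches of Fcgr2b transcripts, 6.72% also occur in another gene, most of them in Fcgr3, and 10.2% of those of Fcgr3 occur in Fcgr2b. How the submitters' counting treated such reads is not given in the sources used here, so a small part of the counts of these 2 genes is uncertain.

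The ratio of Fcgr1 to Fcgr2b, formed within each library, separated the diets in every library. It was 0.210, 0.270 and 0.257 in WT chow and 0.377, 0.443 and 0.511 in WT HFD. In meKO it was 0.248, 0.258 and 0.283 on chow and 0.422, 0.473 and 0.513 on HFD. All 6 HFD libraries thus lay above all 6 chow libraries, and the 2 genotypes covered nearly the same range on each diet. The mean log2 ratio rose by 0.85 in WT (1.80-fold) and by 0.83 in meKO (1.78-fold), where the SD between replicates was 0.21 and 0.12. With single libraries left out it ranged from 0.74 to 0.96 in WT and from 0.77 to 0.91 in meKO, and after the correction it was 0.79 and 0.81. The ratio joins genes already known to move apart, so it is given as a description without a test.

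**Figure D3:**
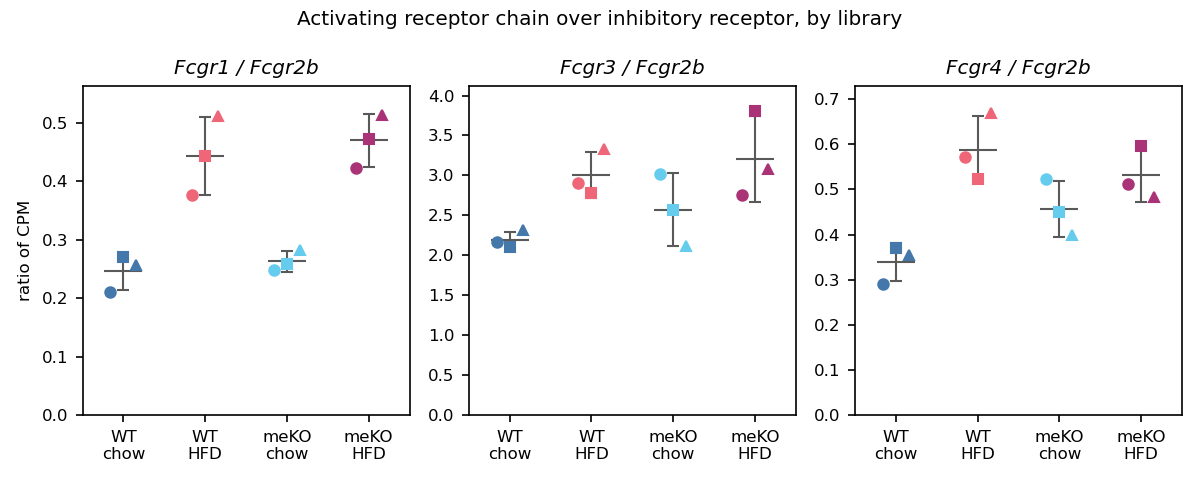
Ratio of each activating receptor chain to the inhibitory Fcgr2b (ratio of CPM, no unit) in each library; symbols are replicates 1 to 3 and horizontal marks with bars are means ± SD (n = 3). The Fcgr1 ratio stayed at or under 0.283 in the 6 chow libraries and at or over 0.377 in the 6 HFD libraries, while the meKO libraries overlapped between diets for Fcgr3 and Fcgr4.

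Fcgr3, the receptor for immune complexes that pairs with the gamma chain, moved little. WT libraries had 1036.5, 1108.9 and 1559.4 CPM on chow and 1330.6, 1203.5 and 1434.7 on HFD. Those of meKO had 1392.4, 1374.3 and 1333.0 CPM on chow and 1203.8, 1623.6 and 1304.3 on HFD. The groups overlapped in both genotypes. The diet difference was 0.10 ± 0.15 in WT, 0.01 ± 0.15 in meKO and 0.06 ± 0.11 over both (log2, edgeR adjusted p = 0.725 for the last). After the length and GC correction its sign turned: -0.23 in WT and -0.15 in meKO, and -0.19 over both, which edgeR called (adjusted p = 0.0332). Its direction on HFD therefore depends on whether length is modelled. Fcgr3 over Fcgr2b averaged 2.19 ± 0.107 in WT chow and 3.0 ± 0.288 in WT HFD (SD, n = 3), but 2.65 and 2.76 after the correction.

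Fcgr4, which binds IgG2 subclasses and also signals through the gamma chain, was not called between diets. Its WT libraries had 140, 196 and 240 CPM on chow and 262, 226 and 289 on HFD, so that a single pair of libraries crossed. The meKO libraries were at 241, 241 and 252 CPM on chow and 224, 254 and 205 on HFD. The log2 fold change on HFD was 0.43 ± 0.16 in WT and -0.10 ± 0.16 in meKO (edgeR adjusted p = 0.0703 and 0.77), and the interaction was -0.54 ± 0.23 (unadjusted p = 0.0364, edgeR adjusted p = 0.791). After the correction the WT value was 0.06, that in meKO -0.28 and the interaction -0.34 (edgeR adjusted p = 0.794). The WT chow replicates 1 and 2, which stand apart along length, were the lowest 2 of the 12 libraries for this gene of 1256 bases.

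Fcer1g, the gamma chain, is needed on the cell surface by Fcgr1, Fcgr3 and Fcgr4 and carries their ITAM. WT libraries had 431, 460 and 616 CPM on chow and 705, 669 and 760 on HFD, without overlap. Those of meKO had 675, 652 and 569 CPM on chow and 592, 907 and 675 on HFD, with overlap. It rose on HFD in WT by 0.50 ± 0.16 on the log2 scale, or 1.42-fold (edgeR adjusted p = 0.0443), and over both genotypes by 0.35 ± 0.12 (adjusted p = 0.0362); the meKO value was 0.20 ± 0.16 (adjusted p = 0.545). After the correction the values were 0.05 in WT (edgeR adjusted p = 0.647) and -0.01 over both (adjusted p = 0.91). The longest Fcer1g transcript has 683 bases, and the median fold change over all genes under 1000 bases long in this WT contrast was 0.49. The WT call also ended when any of 8 single libraries was left out, among them each of WT chow replicates 1 and 2 (0.42 and 0.45, edgeR adjusted p = 0.177 and 0.149).

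Inpp5d encodes SHIP1, the phosphatase that Fcgr2b recruits. WT libraries had 156, 163 and 135 CPM on chow and 110, 119 and 99.4 on HFD, and meKO libraries 130, 124 and 134 CPM on chow and 122, 90.6 and 111 on HFD. Every HFD library lay below every chow library of its genotype, as for Fcgr2b. It fell in WT by 0.47 ± 0.12 on the log2 scale, to 0.722 of the chow level (edgeR adjusted p = 0.023), and over both genotypes by 0.36 ± 0.09 (adjusted p = 0.0111); in meKO the value was -0.26 ± 0.12 (adjusted p = 0.32). After the correction it was -0.16 in WT (edgeR adjusted p = 0.165), -0.13 in meKO and -0.14 over both (adjusted p = 0.0579), so the sign held and the calls ended. The median over all genes of 4000 to 5000 bases in the WT contrast was -0.24, and the longest Inpp5d transcript has 4937. The WT call ended without either of WT chow replicates 1 and 2 (edgeR adjusted p = 0.109 and 0.0991) and without WT HFD replicates 1 or 3 (0.0656 and 0.112).

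Syk, the kinase that docks on the phosphorylated ITAM, had 469, 429 and 317 CPM in the WT libraries on chow and 320, 356 and 277 on HFD. The meKO libraries had 377, 310 and 378 CPM on chow and 379, 252 and 307 on HFD. The diet groups overlapped in both genotypes. Its diet difference was -0.35 ± 0.17 in WT and -0.27 ± 0.12 over both genotypes (edgeR adjusted p = 0.142 and 0.105), and 0.02 and -0.02 after the correction. Syk has 5363 bases, and genes of 5000 bases or more had a median of -0.38 in WT.

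Lyn, the Src family kinase that phosphorylates both ITAM and ITIM, had the smallest spread of the 9 relative to its mean, from 201 to 249 CPM over the 12 libraries. WT libraries had 220, 232 and 241 CPM on chow and 213, 225 and 239 on HFD, and meKO libraries 234, 230 and 237 on chow and 249, 201 and 221 on HFD. All groups overlapped, and the diet difference was -0.03 ± 0.10 in WT and -0.07 ± 0.10 in meKO (log2, edgeR adjusted p = 0.825 and 0.759). Of its 50-base stretches, 15.7% also occur in Gm11787, which has a count row of its own, so reads could have been split between them.

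Vav1, the exchange factor for Rac that couples Syk to actin, had 107, 120 and 95.2 CPM in the WT libraries on chow and 96.3, 100 and 83.8 on HFD. The meKO libraries had 92.6, 97.2 and 94.8 CPM on chow and 104, 85.2 and 85.5 on HFD. The groups overlapped. The diet difference was -0.20 ± 0.12 in WT and -0.05 ± 0.12 in meKO (log2, edgeR adjusted p = 0.211 and 0.845), and -0.12 and 0.00 after the correction.

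**Figure D4:**
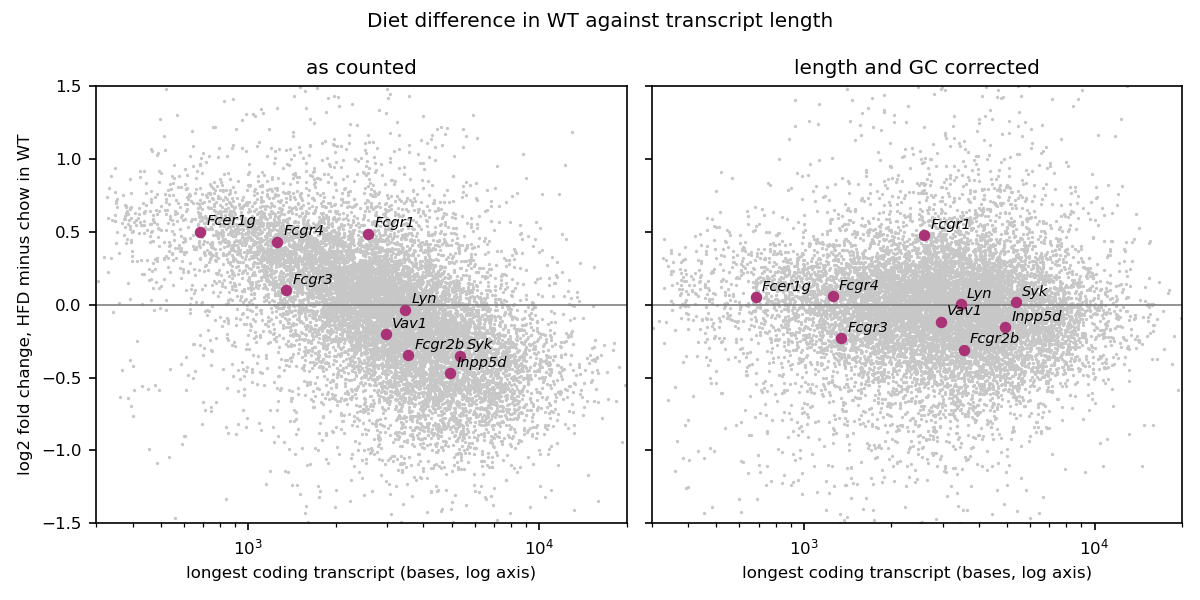
Log2 fold change from chow to HFD in WT against the length of the longest coding transcript (bases, log axis) for 12047 genes, grey, with the 9 genes in purple; left, counts as deposited, right, after the length and GC correction. The vertical axes stop at ±1.5, and 128 genes on the left and 116 on the right fall outside. On the left Fcer1g (0.50) and Syk (-0.35) lay within the slope of the cloud, and on the right Fcgr1 (0.48) and Fcgr2b (-0.31) remained away from 0.

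Across 12047 genes the fold change on HFD in WT fell with transcript length (Spearman's rho -0.57; genes are not independent replicates), from a median of 0.49 under 1000 bases to -0.38 from 5000 bases. In meKO the same rho was -0.34. Against the median of genes of their own length class in WT, Fcer1g (0.50 against 0.49) and Syk (-0.35 against -0.38) lay nearest. Fcgr1 was 0.49 against 0.05, Vav1 -0.20 against 0.05, Inpp5d -0.47 against -0.24, Fcgr2b -0.35 against -0.13 and Lyn -0.03 against -0.13. Fcgr3 lay below its class (0.10 against 0.25) and Fcgr4 above it (0.43 against 0.25). The classes and the correction use the longest coding transcript, 4937 bases for Inpp5d and 3544 for Fcgr2b. The mean over coding transcripts is 3207 bases for Inpp5d and 1917 for Fcgr2b. A correction with mean lengths was not run.

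The loss of protein kinase C epsilon in myeloid cells, the question named in the series title, went with no called difference in the 9 genes. Prkce itself was also not called by edgeR on chow, on HFD or averaged over diets, although its WT and meKO libraries did not overlap. A lack of calls in this test therefore does not show a lack of difference. On chow edgeR called 0 of 9, beside 0.081% of all genes. Of the 9, 0 had an unadjusted p under 0.05, beside 19.8% of all genes. DESeq2 called 0 of the 9 and 591 of all genes. Fcgr4 was 0.35 ± 0.16 higher in meKO than in WT (log2, edgeR adjusted p = 0.253), Fcer1g 0.33 ± 0.16 higher (adjusted p = 0.269) and Inpp5d -0.23 ± 0.12 (adjusted p = 0.299). Fcgr3 differed by 0.15 ± 0.15, Syk by -0.19 ± 0.17, Vav1 by -0.18 ± 0.12, Fcgr1 by 0.05 ± 0.19, Fcgr2b by -0.05 ± 0.14 and Lyn by 0.02 ± 0.10. The WT and meKO chow libraries did not overlap for Fcgr4 (higher) and Inpp5d (lower), 2 of the 9, beside 17.1% of all genes. After the correction these values were 0.11 for Fcgr4, 0.05 for Fcer1g and 0.00 for Inpp5d, the 9 ran from -0.17 (Vav1) to 0.11 (Fcgr4), and the genotypes' libraries overlapped for all 9 genes. Without WT chow replicate 3, edgeR called 2 of the 9 (Fcgr4 and Fcer1g), beside 2543 of all 12339 genes. Voom with library quality weights, which gave that library a weight of 0.222, called 4 (Fcgr3, Fcgr4, Fcer1g and Inpp5d), beside 4047 of all genes. Both settings lean on WT chow replicates 1 and 2, the libraries with the strongest length trend. Without those 2 libraries the log2 values were 0.03 for Fcgr4, 0.04 for Fcer1g, -0.19 for Fcgr3 and -0.06 for Inpp5d. The genotype result on chow thus depends on which WT chow libraries are used.

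On HFD edgeR called 0 of 9 between genotypes, beside 0.081% of all genes. Of the 9, 0 had an unadjusted p under 0.05, beside 4.56% of all genes. DESeq2 called 0 of the 9 and 53 of all genes. The libraries of the 2 genotypes separated for none of the 9 (10.3% of all genes did). The differences ran from -0.19 ± 0.16 for Fcgr4 to 0.06 ± 0.15 for Fcgr3, with Fcgr1 at 0.05 ± 0.19 and Fcgr2b at -0.04 ± 0.14 (log2, edgeR adjusted p = 0.999 for each). After the correction they ran from -0.23 (Fcgr4, unadjusted p = 0.0712, edgeR adjusted p = 0.779, with WT and meKO libraries that did not overlap) to 0.02. Averaged over diets the differences ran from -0.12 (Inpp5d) to 0.18 (Fcer1g), and after the correction from -0.11 (Vav1) to 0.05 (Syk), with Inpp5d at 0.01 and Fcer1g at -0.02; the sign turned for Fcgr3, Fcgr4, Fcer1g, Syk and Inpp5d. In this contrast edgeR called 0 of 9, beside 0.17% of all genes. Of the 9, 0 had an unadjusted p under 0.05, beside 17.7% of all genes. DESeq2 called 0 of the 9 and 366 of all genes. The SEs were 0.10 to 0.19 on HFD and 0.07 to 0.13 averaged over diets, and a value that misses the threshold does not show that the genotypes were alike.

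The test of whether diet acted differently in the 2 genotypes called 0 of 9 with edgeR, beside 0.0162% of all genes. Of the 9, 1 (Fcgr4) had an unadjusted p under 0.05, beside 6.13% of all genes. DESeq2 called 0 of the 9 and 15 of all genes. For Fcgr1 the interaction was 0.999-fold, with an SE of 0.27 on the log2 scale, and for Fcgr2b it was 0.01 ± 0.19. Fcer1g had -0.31 ± 0.23, Inpp5d 0.21 ± 0.17, Syk 0.17 ± 0.24, Vav1 0.15 ± 0.17, Fcgr3 -0.09 ± 0.22 and Lyn -0.03 ± 0.14 (edgeR adjusted p of 0.818 or more). After the correction the interactions ran from -0.34 (Fcgr4) to 0.12 (Vav1). Voom with quality weights called Fcgr4 (adjusted p = 0.049), beside 295 of all genes.

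The genes whose log2 CPM followed each member most closely over the 12 libraries were listed as a description, since the libraries share group, depth and length trend. Fcer1g was most like Tyrobp (Pearson's r 0.993), which encodes DAP12, the other ITAM adaptor of myeloid cells and likewise a short transcript (597 bases). After the length and GC correction that r was 0.626. Syk was most like Mboat7 and Cant1 (0.980 each; 0.424 and 0.731 corrected) and Inpp5d most like Prkag2 (0.983; 0.767 corrected). Fcgr1 was most like Amd2 (0.941; 0.843 corrected) and Uba2 (0.934; 0.265 corrected), and Fcgr2b most like Serinc3 (0.935; 0.906 corrected) and Slc46a3 (0.927; 0.867 corrected). Vav1 was most like Irak1 (0.963; 0.893 corrected) and Ranbp9 (0.962; 0.938 corrected). Fcgr3 was most like Dguok (0.952; 0.784), Fcgr4 most like Mis18a (0.961; 0.614) and Lyn most like Rnpep (0.885; 0.649). Each of these likenesses was lower after the correction.

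The other genes of the pathway were read from 9 lists (Rac2 stands in 2 of them and counts once in the totals). They held 135 genes, of which 124 were measured. Between diets in WT, edgeR called 49 of them (39.5%, beside 21.3% of all genes), 18 higher and 31 lower, with a median log2 fold change of -0.16 against -0.03 over all genes. After the length and GC correction 25 were called (20.2%, beside 12.3%), 5 higher and 20 lower. Over both genotypes 60 were called (48.4%, beside 30.2%), 21 higher and 39 lower, and 45 after the correction (36.3%, beside 23.0%), 12 higher and 33 lower. In meKO alone a single gene was called, Pirb (0.806%, beside 0.105% of all genes), and after the correction 3 (2.42%, beside 0.43%), 1 higher and 2 lower. Between genotypes edgeR called 0 of the 124 on chow, where 39 had an unadjusted p under 0.05 (19.8% of all genes did) and DESeq2 called 16 (591 of all genes). On HFD it called 0, where 9 had an unadjusted p under 0.05 (4.56% of all genes) and DESeq2 called 2 (53 of all genes). In the interaction it called 0, where 17 had an unadjusted p under 0.05 (6.13% of all genes) and DESeq2 called 0 (15 of all genes). The log2 fold changes named next are those of HFD against chow in WT unless stated.

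Among Src family kinases and their regulators, 0 of 13 were called higher and 2 lower, and both are ubiquitin ligases that end receptor signals. Cblb was 83.5 ± 12.7 CPM on chow and 40.4 ± 2.50 on HFD (SD, n = 3), a fall of 1.05 ± 0.17 on the log2 scale (edgeR adjusted p = 0.0062) and of 0.73 after the correction (adjusted p = 0.00721). Cbl fell by 0.66 ± 0.18 (edgeR adjusted p = 0.0248), and its corrected value was -0.28 (adjusted p = 0.0691).

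Of 16 adaptors and phospholipase C genes measured, 2 were called higher and 5 lower, and 0 higher and 5 lower after the correction. Plcg1, a phospholipase that makes diacylglycerol and releases calcium, went from 8.82 ± 1.98 to 4.27 ± 0.574 CPM, a log2 change of -1.05 ± 0.19 (edgeR adjusted p = 0.00885; corrected -0.69). The adaptor Grb2 went from 381 ± 8.19 to 278 ± 8.21 CPM, a fall of 0.46 ± 0.09 that the correction hardly moved (-0.44, edgeR adjusted p = 0.00605). Shc1, its partner, fell by 0.59 ± 0.12 (corrected -0.46). Lat2 and Blnk, adaptors of ITAM receptors, rose by 0.53 ± 0.16 and 0.29 ± 0.10 (edgeR adjusted p = 0.0348 and 0.048). Their corrected values in WT, 0.32 and 0.15, were not called. Lat2 over both genotypes rose by 0.42 ± 0.11 and stayed called after the correction (0.28, edgeR adjusted p = 0.0354).

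Phosphoinositide enzymes had 0 of 16 called higher and 9 lower (3 lower after the correction), with a list median of -0.47, and -0.17 corrected. Pip5k1c, a kinase that makes the substrate of phospholipase C and PI3 kinase, went from 133 ± 28.1 to 71.9 ± 10.7 CPM (-0.89 ± 0.17, edgeR adjusted p = 0.01; corrected -0.55, 0.00522). Inppl1, which encodes SHIP2, the relative of Inpp5d, fell by 0.78 ± 0.17 (edgeR adjusted p = 0.0155) and by 0.39 after the correction (0.0245). Pik3cg, a PI3 kinase catalytic subunit, fell by 0.53 ± 0.11, and its corrected value of -0.28 was not called (edgeR adjusted p = 0.0608).

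Of 16 inhibitory phosphatases, adaptors and ITIM receptors, 5 were called higher and 2 lower (1 and 1 after the correction). Lair1, a collagen receptor with ITIMs, rose from 130 ± 13.6 to 193 ± 30.1 CPM (0.58 ± 0.12, edgeR adjusted p = 0.0131; corrected 0.83, 0.00434). Clec12a, an inhibitory lectin, rose by 0.55 ± 0.16 and the adaptor Dok3 by 0.43 ± 0.12 (edgeR adjusted p = 0.0284 and 0.0272). Their corrected values in WT, 0.35 and 0.32, were not called. Clec12a over both genotypes rose by 0.61 ± 0.11 and stayed called after the correction (0.48, edgeR adjusted p = 0.0033). Sirpa, the receptor for CD47, fell by 0.43 ± 0.12 (corrected -0.19, not called), and Siglece, at 1.11 ± 0.468 CPM on chow, fell by 1.60 ± 0.37. Pirb, an inhibitory receptor for MHC class I, went from 700 ± 86.9 to 354 ± 42.5 CPM in meKO (-0.98 ± 0.14, edgeR adjusted p = 0.018; corrected -0.92, 0.0075).

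Of 28 exchange factors, GTPases and actin drivers of the phagocytic cup, 6 were called higher and 9 lower (3 and 5 after the correction). Coro1a and Cfl1, which bind and turn over actin filaments, rose by 0.58 ± 0.13 and 0.55 ± 0.13 (edgeR adjusted p = 0.0162 and 0.0173) and stayed called after the correction (0.47 and 0.48). Arpc2, a subunit of the Arp2/3 complex, rose by 0.41 ± 0.10, and its corrected value was 0.05 (edgeR adjusted p = 0.729). Elmo1, which activates Rac together with Dock1, and Was and Limk1, which control actin assembly, fell by 0.83 ± 0.15, 0.80 ± 0.17 and 0.77 ± 0.17 (edgeR adjusted p = 0.00853, 0.0135 and 0.0139), with corrected values of -0.57, -0.85 and -0.56 that were called.

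Among the 6 subunits of the phagocyte oxidase, which receptor engagement switches on, 2 were called higher and 1 lower. After the correction 1 was called higher and 0 lower in WT, and 2 higher and 0 lower over both genotypes. The list median in WT was 0.28, and 0.29 corrected. Cyba (p22phox, 744 bases) rose by 0.60 ± 0.14, with a corrected value of 0.24 (edgeR adjusted p = 0.0598). Cybb (gp91phox), its membrane partner, fell by 0.45 ± 0.14, with a corrected value of -0.32 (edgeR adjusted p = 0.0632). Cyba over both genotypes rose by 0.48 ± 0.10 and stayed called after the correction (0.21, edgeR adjusted p = 0.0211). Cybb fell there by 0.27 ± 0.10, and its corrected value of -0.17 was not called (edgeR adjusted p = 0.108).

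Receptors related to the members were mixed. Of 9 other immunoglobulin receptors measured, 1 was called higher and 2 lower: B2m (0.62 ± 0.20; corrected 0.03), the light chain of the neonatal Fc receptor and of MHC class I, and the B cell genes Fcer2a (-2.41 ± 0.52) and Fcmr (-1.49 ± 0.38), which are also in the B cell marker list. After the correction 0 of these 9 were called higher and 3 lower. Of 14 genes listed with the gamma chain or DAP12 (receptors, and adaptors such as DAP12 itself), 2 were called higher and 1 lower in WT. After the correction these counts were 0 and 2. Trem2, a lipid-sensing receptor, went from 614 ± 80.5 to 907 ± 69.2 CPM (0.56 ± 0.14, edgeR adjusted p = 0.0218; corrected 0.27, 0.0801). Sirpb1a rose by 0.61 ± 0.19 (corrected 0.24, not called) and Cd300lb fell by 0.33 ± 0.11 (corrected -0.33, edgeR adjusted p = 0.0424). Of 7 protein kinase C isoforms measured 0 were called in WT by edgeR (4 with an unadjusted p under 0.05, and 2 by DESeq2), and over both genotypes 2 were lower, Prkci by 0.25 ± 0.09 (adjusted p = 0.0426; corrected -0.13, not called).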

How the data were processed

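RNA from 12 libraries of mouse macrophages was analysed, 3 in each of 4 groups taken from the sample titles. The authors deposited whole-number counts per gene and library, not normalized; per the submitters' processing notes the build is mm10 and DESeq2 was used, and the aligner, counter and strand setting are not given in the sources used here. Every listed gene reached at least 0.501 CPM in 6 libraries, so the table appears filtered; 186 genes without a symbol held 0.44% of the counts and were kept under their identifiers. Replicates differed by more than sampling noise in all 12 pairs (chi-square per degree of freedom at least 16.9).

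For the main tests edgeR 4.0.16 (R 4.3.3) was run on these counts (TMM factors, filterByExpr, which kept 12339 genes, robust quasi-likelihood F test, 4 group means over all 12 libraries), two-sided, with Benjamini-Hochberg adjustment over all genes. SEs are the fold change divided by the square root of F. The other settings tried were DESeq2 1.42.0, size factors by median of ratios, library totals alone, no filter, limma 3.58.1 voom with library quality weights, a length and GC offset (mgcv 1.9.3 smooth terms, with GENCODE lengths for 97.6% of genes), only the groups compared, and left-out libraries. The fits were tested on simulated data. Shared sequence was counted as exact 50-base matches between GENCODE transcripts of different genes. Promoters are from RefSeq (GRCm38.p6), matched by symbol. Every member was named, and from each pathway list up to 3 called genes each way with the smallest p in WT between diets and up to 1 each way in other contrasts. The alternatives for the ratio of Fcgr1 to Fcgr2b were chosen after seeing the data. The members and lists were chosen with earlier results of these data known. A few named genes are not reported here.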

Additional observations from a re-analysis of the deposited data

How the results depend on the processing

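No paired analysis was possible because the labels give no number that ties a library of any group to a library of another. The limits are 3 libraries a group, a strand and multi-mapping treatment that is not known, bulk RNA, and a trend along transcript length. That trend was strongest in WT chow replicates 1 and 2. The diet difference in meKO, which uses neither of those libraries, also fell with transcript length (Spearman's rho -0.34 across genes). Where no cause is named below, the cause was not tested. The low-count filter made no difference, since the edgeR filter removed no gene.

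Counts of the 9 genes called moved as follows. In WT between diets (2 called) DESeq2 called 4, voom with quality weights 7, the length and GC correction 0 and the fit without WT chow replicates 1 and 2 together 0; leaving out single libraries gave 0 to 5, the highest without WT chow replicate 3. Over both genotypes (4 called) the fit without those 2 libraries called 1, and single libraries left out gave 1 to 6. For genotype on chow voom with quality weights called 4 and single libraries left out gave 0 to 2. Voom with quality weights called 1 in the interaction and 1 for genotype averaged over diets.

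Counts over all genes for genotype on chow (10) were 2 with library totals, 591 with DESeq2, 4047 with voom with quality weights, 4 with the correction, 5 with the compared groups only and 3 without WT chow replicates 1 and 2, and 2 to 2543 with single libraries left out (the highest without WT chow replicate 3). For genotype on HFD (10) they were 53 with DESeq2, 128 with voom, 34 with the compared groups only and 16 without those 2 libraries, and 3 to 16 with single libraries left out. For diet in WT (2634) they were 6411 with voom, 1517 with the correction and 15 without those 2 libraries, and 96 to 4921 with single libraries left out. For diet in meKO (13) they were 227 with DESeq2, 398 with voom, 53 with the correction and 1 with the compared groups only, and 1 to 135 with single libraries left out. For the interaction (2) they were 15 with DESeq2 and 295 with voom, and 1 to 56. For genotype averaged over diets (21) they were 366 with DESeq2, 3835 with voom and 11 without the 2 libraries, and 8 to 1400. For diet averaged over genotypes (3721) they were 6298 with voom and 202 without the 2 libraries, and 1957 to 5326.

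Log2 fold changes that changed sign were, with the length and GC correction: on chow between genotypes Fcgr1 -0.01, Fcgr3 -0.07 and Syk 0.09; on HFD between genotypes Fcer1g -0.08, Syk 0.02 and Inpp5d 0.02; for genotype averaged over diets Fcgr3 -0.03, Fcgr4 -0.06, Fcer1g -0.02, Syk 0.05 and Inpp5d 0.01; between diets in WT Fcgr3 -0.23, Syk 0.02 and Lyn 0.002, in meKO Fcgr3 -0.15, Fcer1g -0.07 and Vav1 0.004, and over both Fcgr3 -0.19, Fcgr4 -0.11 and Fcer1g -0.01; in the interaction Fcgr1 0.02, Fcgr3 0.08 and Syk -0.07. Without WT chow replicates 1 and 2 together the genotype values on chow were -0.27 for Fcgr1, -0.19 for Fcgr3, 0.17 for Syk and -0.04 for Lyn, and averaged over diets -0.12 for Fcgr1, -0.07 for Fcgr3, -0.08 for Fcgr4, 0.07 for Syk and -0.03 for Lyn. The diet values were then -0.24 for Fcgr3 and 0.01 for Syk in WT and -0.11 for Fcgr3 over both. The interactions were 0.32 for Fcgr1, 0.25 for Fcgr3, -0.19 for Syk, 0.02 for Lyn and -0.03 for Vav1. Library totals gave -0.02 for Fcgr1 and -0.05 for Lyn (genotype on chow), -0.001 for Fcer1g (genotype on HFD), -0.04 for Lyn (genotype averaged over diets), -0.03 and -0.01 for Fcgr3 (diet in meKO and over both), and interactions of 0.04 for Fcgr1 and 0.02 for Lyn. Voom with quality weights gave 0.08 and 0.01 for Fcgr2b (genotype on chow and averaged over diets), -0.02 for Fcer1g (genotype on HFD), -0.04 for Fcgr3 (diet in meKO) and -0.15 for Fcgr2b (interaction), for which median-of-ratios factors and DESeq2 each gave -0.003.

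With single libraries left out, signs changed within these ranges. Genotype on chow: Fcgr1 -0.14 to 0.25, Fcgr2b -0.17 to 0.12, Lyn -0.002 to 0.06. Genotype on HFD: Fcgr1 -0.04 to 0.14, Fcgr3 -0.09 to 0.15, Fcer1g -0.18 to 0.15, Syk -0.18 to 0.10, Lyn -0.10 to 0.05, Inpp5d -0.12 to 0.08, Vav1 -0.13 to 0.02. Genotype averaged over diets: Fcgr1 -0.05 to 0.15, Fcgr2b -0.11 to 0.04, Fcgr4 -0.01 to 0.18, Lyn -0.04 to 0.03. Diet in WT: Fcgr3 -0.0006 to 0.31, Lyn -0.07 to 0.01. Diet in meKO: Fcgr3 -0.12 to 0.10, Lyn -0.15 to 0.005. Over both genotypes: Fcgr3 -0.01 to 0.16. Interaction: Fcgr1 -0.21 to 0.19, Fcgr2b -0.16 to 0.13, Fcgr3 -0.31 to 0.01, Lyn -0.12 to 0.04. None of these had been called in the fit reported. The diet differences of Fcgr1 and Fcgr2b kept their signs in each genotype and over both under every setting run, from 0.17 to 0.69 and -0.62 to -0.18 in WT, and from 0.33 to 0.62 and -0.48 to -0.26 over both genotypes.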
